A study of Mus musculus with 19 samples.

Results

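Mice carrying the Idh2 R140Q mutation together with Flt3-ITD, an internal tandem duplication that keeps the FLT3 receptor active, develop an acute myeloid leukemia, and RNA was compared between such mice given the IDH2 inhibitor AG-221 and such mice given vehicle. The comparison takes 7 of the series' 19 libraries, 4 from AG-221 (AG1, AG8, AG12 and AG13) and 3 from vehicle (V3, V3-2 and V9), chosen by the treatment in their labels and the names of their columns, with every RefSeq transcript accession of the table kept. The mice were C57BL/6, both groups carried both mutations, and the cells were sorted as lineage-negative, Sca-1-positive and Kit-positive (LSK), the gate that holds blood stem and early progenitor cells, and taken without culture. AG-221 was given by oral gavage 2 times a day for 4 to 5 weeks in methyl cellulose with Tween80, at 100 mg per kg as a single agent or 40 mg per kg in combination. The labels do not say which dose a library had, what the vehicle group received beyond that word, or how the Idh2 allele is expressed. Of the other libraries, 4 from wild-type LSK cells (WT) serve here as a reference level, and the 8 from mice without Tet2 and with Flt3-ITD, given vehicle or 5-azacytidine, enter the fit of the spread.

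IDH2 is the mitochondrial enzyme that turns isocitrate into 2-oxoglutarate, and the R140Q form turns 2-oxoglutarate into 2-hydroxyglutarate instead. 2-hydroxyglutarate competes with 2-oxoglutarate in enzymes that need it, among them the TET enzymes, which oxidize methylated cytosine in CpG dinucleotides, and many histone demethylases. Mutant IDH2 is known for a block of myeloid differentiation in leukemia, and AG-221 (enasidenib) binds the mutant enzyme and lowers 2-hydroxyglutarate.

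The promoters of the 3 genes that passed against V9 alone in both DESeq2 and limma-voom are shown here, since CpG dinucleotides are what TET enzymes act on. Each is 300 bases of RefSeq sequence on build GRCm38.p6, from 250 bases before the gene's start to 50 after it, on the gene's strand, with the most upstream start taken where several are listed. Capitals mark CpG. No methylation was measured in the libraries used here.
Gldc, chr19:30175392-30175691, minus strand: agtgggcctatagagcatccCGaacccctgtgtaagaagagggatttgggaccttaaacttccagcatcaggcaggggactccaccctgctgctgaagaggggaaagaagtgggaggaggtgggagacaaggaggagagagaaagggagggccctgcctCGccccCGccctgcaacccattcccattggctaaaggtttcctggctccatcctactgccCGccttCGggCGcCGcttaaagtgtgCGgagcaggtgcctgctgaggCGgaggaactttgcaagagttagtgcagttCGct
Hlf, chr11:90390868-90391167, minus strand: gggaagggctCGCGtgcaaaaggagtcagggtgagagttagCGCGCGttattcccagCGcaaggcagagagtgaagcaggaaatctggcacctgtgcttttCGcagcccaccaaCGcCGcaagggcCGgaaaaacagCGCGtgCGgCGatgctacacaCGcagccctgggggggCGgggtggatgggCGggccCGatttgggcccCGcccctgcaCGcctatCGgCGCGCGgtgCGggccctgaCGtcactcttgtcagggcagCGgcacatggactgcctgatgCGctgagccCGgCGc
Casp12, chr9:5345226-5345525, plus strand: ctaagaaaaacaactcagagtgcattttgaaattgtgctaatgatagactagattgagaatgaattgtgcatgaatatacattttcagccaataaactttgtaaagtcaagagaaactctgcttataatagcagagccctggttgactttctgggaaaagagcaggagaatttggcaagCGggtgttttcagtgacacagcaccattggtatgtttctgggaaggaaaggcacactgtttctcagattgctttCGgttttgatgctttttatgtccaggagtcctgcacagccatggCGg
The Gldc window held 10 CpG, that of Hlf 30 and that of Casp12 3, against a median of 7 and quartiles of 3 and 20 over the 27025 mouse promoters in the same table. Hlf thus lay above the upper quartile, Casp12 at the lower quartile and Gldc between the quartiles.

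Total counts ran from 9913084 to 11988449 in the AG-221 libraries and from 13128950 to 20140641 in the vehicle libraries, with V3-2 the deepest. The labels do not say whether libraries come from separate mice, and the names V3 and V3-2 share a number, so p-values measure the spread between libraries. V3 and V3-2 were not copies of each other. Their counts differed by a chi-square of 280.3 per gene, within the 67.6 to 474.2 of all pairs of the 7 libraries. The root mean square log2 distance of V9 was 0.913 to 1.14 from the AG-221 libraries, 1.06 from V3 and 1.36 from V3-2. V9 thus stood as near to the treated libraries as to the other vehicle libraries.

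**Figure D1:**
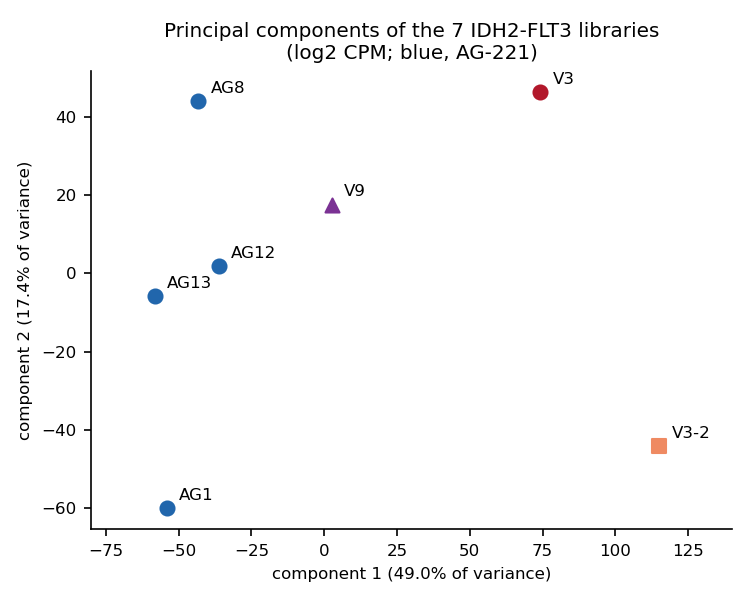
Scores of the 7 IDH2-FLT3 libraries on the first 2 principal components of log2 CPM (arbitrary units), 1 point a library. Component 1 holds 49.0% of the variance and runs from V3-2 and V3 at 115 and 74.1 over V9 at 2.55 to the AG-221 libraries between -58.2 and -36.2.

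The drug target and related genes came first as a check of labels and gate. Idh2 was at 273, 123, 204 and 154 CPM (counts scaled to a common library size with trimmed mean of M values factors) in AG1, AG8, AG12 and AG13, the order used for AG-221 throughout, and at 153, 544 and 237 CPM in V3, V3-2 and V9. The groups overlapped, and the log2 fold change of AG-221 over vehicle was -0.72 ± 0.39 (SE, adjusted p = 0.213, edgeR's quasi-likelihood test, the test behind every adjusted p given without another name). Gene counts do not separate the mutant from the normal Idh2 transcript, and an inhibitor of the enzyme need not move them. Flt3, which carries the duplication, was at 353, 234, 239 and 404 CPM under AG-221 and 58.3, 146 and 260.2 CPM under vehicle (log2 fold change 0.99 ± 0.45, adjusted p = 0.146), lowest in V3 and V3-2 and within the AG-221 range in V9. Tet2 stood at 152, 90.2, 116 and 161 and 188, 120.2 and 140.5 CPM, with overlapping groups (log2 fold change -0.20 ± 0.33, adjusted p = 0.702). The gate could not be read from RNA: Kit and Ly6a, the gene of Sca-1, are each split over several accessions of the table, and their best accession was at or near 0 in every library. Of the 5140 genes with more than 1 accession, 61.6% of the accessions were at 0 in all 19 libraries, against 18.9% of the others.

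Over 11830 accessions tested, 1145 (9.68%) differed between AG-221 and vehicle at an adjusted p under 0.05, 519 higher under AG-221 (4.39%) and 626 lower (5.29%). The genes that rose included stem cell, erythroid, platelet and Hox genes, and those that fell included monocyte and granule genes, cytokine receptors and genes of protein folding in the endoplasmic reticulum. In 970 of the 1145 the 2 groups did not overlap, against 2811 of the 11830 accessions tested (23.8%). The calls come from these same values, so a larger share among them is built in. These calls take the spread from all 19 libraries: with the spread of the 7 alone, edgeR called 0 of 10681, with 2768 at an unadjusted p under 0.05. The split between higher and lower depended on scaling: upper-quartile factors gave 625 higher and 385 lower while moving the median gene by 0.14 on the log2 scale, and tests on log2(FPKM + 1) gave 924 higher and 312 lower.

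The calls rested on V3 and V3-2. In the fits against V9 alone, V9 is the lone vehicle library of these mice, and the spread comes from the other groups. Those fits assume that V9 varies like the other groups, so their p-values hold no spread between vehicle libraries of these mice. Against V9 alone, 0 of 13177 accessions passed in edgeR (smallest adjusted p = 0.911), with 666 (5.05%) at an unadjusted p under 0.05. So no change held against V9 alone by the adjusted p. Other tools gave some calls, part of them in neutrophil and dendritic cell genes for which V9 also differed from V3 and V3-2. The limma-voom fits used quality weights, so that libraries did not count equally in them. DESeq2 called 11 accessions against V9, all higher under AG-221, and limma-voom 46, of which 4 were higher and 42 lower, so these tools split the directions differently. Of the 1145 calls, 1112 kept their sign against V9, 371 of them at an unadjusted p under 0.05 (223 higher and 148 lower), and all 32 genes of the opposite sign were among the lower. In 984 of the 1145 V9 lay outside the AG-221 range on the vehicle side, against 4572 of the 11830 accessions tested (38.6%). V9 was part of the contrast that made these calls. The larger share, the kept signs and the unadjusted p against V9 are thus in part built in and are no separate support. The share of all accessions tested that kept their sign was not counted. The median absolute log2 fold change of the called genes was 1.78 with all 3 vehicle libraries, 1.01 against V9 alone and 2.10 against V3 and V3-2 without V9, and over all accessions tested 0.62, 0.44 and 0.76. Leaving out V3 kept 95 of the calls and leaving out V3-2 kept 110, whereas leaving out V9 kept 1089.

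A set of 57 genes (0.482% of those tested) was called in each of the 7 fits that leave out 1 library and also with V3 and V3-2 summed into 1 library, a rule chosen after the data were seen. Of these, 25 rose and 32 fell. In all 57, V9 lay outside the AG-221 range on the side of V3 and V3-2. V9 was a vehicle library in most of the fits behind the rule. Its side is thus in part set by the rule and is no separate support. The members that rose included Gldc, Hlf, Procr, Myct1, Hoxb5, Hemgn, Casp12, Aldh1a1, Bgn and Phlda2, and those that fell included Csf1r, Cx3cr1, Emb, Cd300lb, Il6st, Il31ra, Itga1, Atf6, P4hb, Plod3, Hexa and Aldh1b1. They are called the stable genes in what follows, a name for that rule only. With the spread of the 7 libraries alone, edgeR called none of them.

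Gldc, glycine decarboxylase of the mitochondrial glycine cleavage system, was at 39.5, 49.6, 41.7 and 27.9 CPM under AG-221, at 0.169, 0.144 and 2.33 CPM in V3, V3-2 and V9, and at 0 to 0.161 CPM in WT. The lowest AG-221 library was thus far above V9, the highest library of the other groups, and the WT libraries were at or near 0. The log2 fold change was 5.53 ± 0.94 (adjusted p = 0.00342) against vehicle and 4.10 ± 1.13 against V9 alone, where the adjusted p was 0.928 in edgeR, 0.00937 in DESeq2 and 0.0355 in limma-voom.

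Casp12, a caspase of the inflammatory family, was at 78.01, 84.7, 75.6 and 77.7 CPM under AG-221 and at 5.57, 4.42 and 25.1 CPM under vehicle, against 45.2 to 62.7 CPM in WT. The 4 treated libraries differed little, and V9 lay between them and the other vehicle libraries. The log2 fold change was 2.76 ± 0.46 (adjusted p = 0.00338) and 1.67 ± 0.42 against V9 alone (adjusted p = 0.928, 0.041 in DESeq2 and 0.0481 in limma-voom).

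Serpini1, which encodes neuroserpin, was the gene with the smallest p against V9, at 23.1, 25.3, 15.9 and 20.03 CPM under AG-221 and 7.59, 7.12 and 2.49 CPM under vehicle. V9 was its lowest library, and its log2 fold change was larger against V9 (3.09 ± 0.62) than against all 3 vehicle libraries (1.87 ± 0.40, adjusted p = 0.0117). Pnp2, a purine nucleoside phosphorylase, was at 41.98, 44.1, 34.2 and 45.2 CPM under AG-221 and 14.8, 10.05 and 13.6 CPM under vehicle, so that the 3 vehicle libraries stood close together (log2 fold change 1.69 ± 0.29, adjusted p = 0.00342). Both were among the 11 calls of DESeq2 against V9, with adjusted p of 0.00021 and 0.0282. WT libraries held 20.8 to 30.5 CPM of Serpini1 and 7.63 to 8.54 CPM of Pnp2. The AG-221 libraries thus overlapped the WT range for Serpini1 and lay above it for Pnp2.

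Among genes of hematopoietic stem cells, most members did not pass. Of 19 tested members of the list, 7 rose and 0 fell, with a median log2 fold change of 1.60, against a median of 0.00 over all accessions tested. Over all accessions tested, 4.39% rose and 5.29% fell, the shares to set beside this and every list below. Hlf, a bZIP transcription factor that marks stem cells, was at 442, 189, 388 and 199 CPM under AG-221, at 18.5, 14.9 and 63.2 CPM in V3, V3-2 and V9, and at 626 to 1061 CPM in WT. The treated libraries lay between vehicle and WT without overlap with either. Its log2 fold change was 3.25 ± 0.52 (adjusted p = 0.00277), and against V9 alone 2.27 ± 0.62 (adjusted p = 0.928 in edgeR, 0.041 in DESeq2, 0.0329 in limma-voom).

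Procr, the endothelial protein C receptor that marks stem cells in the LSK gate, was at 37.1, 42.96, 27.03 and 34.7 CPM under AG-221 and 3.04, 3.89 and 13.6 CPM under vehicle (log2 fold change 2.38 ± 0.40, adjusted p = 0.00338). Hoxb5, a Hox gene used as a marker of long-term stem cells, was at 14.8, 2.23, 3.704 and 9.96 CPM and 0.675, 0.337 and 0.641 CPM (3.81 ± 0.67, adjusted p = 0.004). In both the groups were apart, with V9 the highest vehicle library of Procr and V3 of Hoxb5. Mecom, a zinc finger factor needed by stem cells, was at 57.2, 50.6, 56.7 and 50.5 CPM under AG-221 and 3.12, 1.87 and 31.03 CPM under vehicle, and Esam, an adhesion molecule of stem cells and endothelium, at 31.3, 39.3, 33.3 and 18.5 and 0.169, 0.0481 and 12.4 CPM. For both genes, V9 was far above V3 and V3-2 and below every AG-221 library. For Mecom, V9 was nearer in CPM to the AG-221 libraries than to V3 and V3-2. Slamf1, the stem cell marker CD150, was low throughout, at 1.71, 6.31, 2.86 and 0.293 CPM under AG-221 and 0, 0.144 and 0.561 CPM under vehicle, with AG13 inside the vehicle range.

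Of the 7 calls, 3 stayed without V3, 3 without V3-2 and 6 without V9, and the list's median was 0.40 against V9 alone and 3.36 against V3 and V3-2. Myct1, a gene of stem cells and endothelium outside the list, was at 155, 166, 179 and 125 CPM under AG-221, 14.3, 9.13 and 45.6 CPM under vehicle and 191 to 274 CPM in WT (log2 fold change 2.77 ± 0.46, adjusted p = 0.00338). Limma-voom called it against V9 alone (adjusted p = 0.0355).

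**Figure D2:**
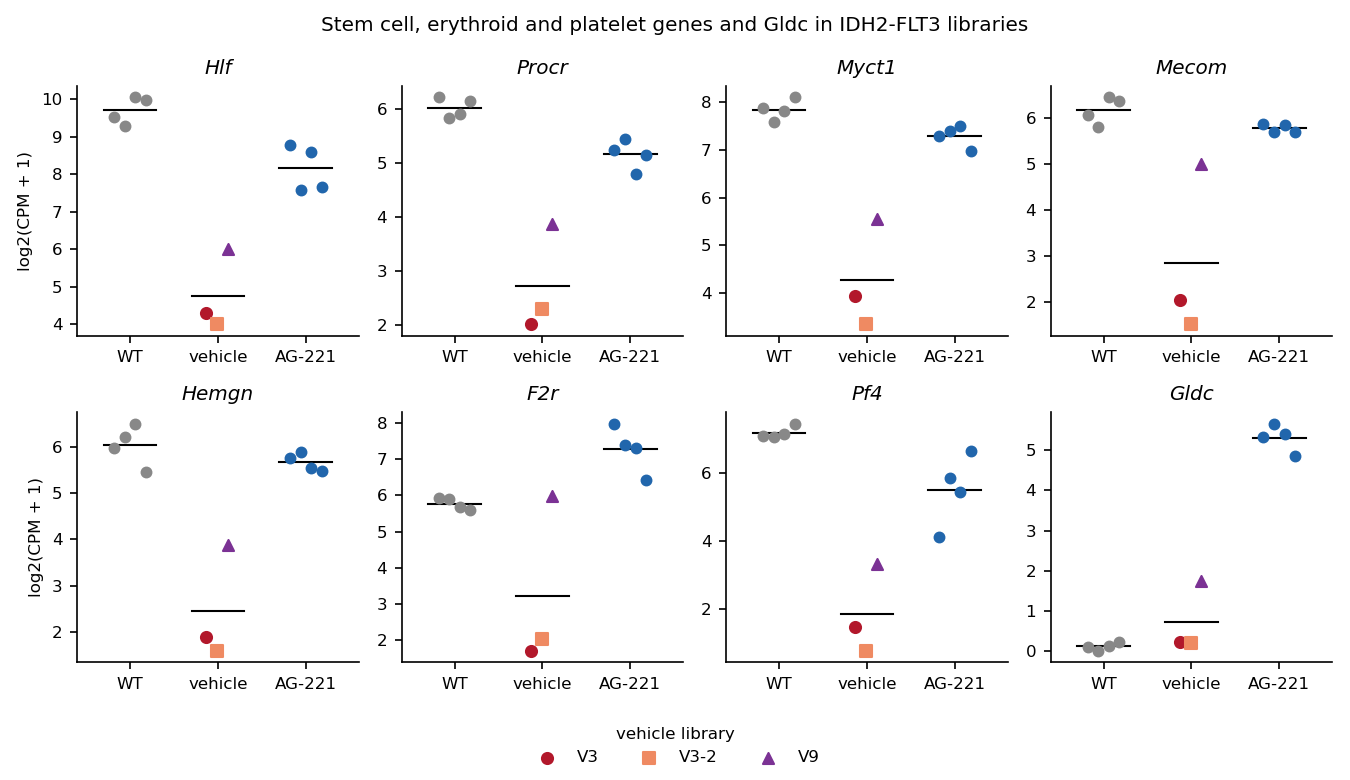
Expression of 8 genes that rose under AG-221, as log2(CPM + 1) by library; grey points are WT, red circles V3, orange squares V3-2, purple triangles V9 and blue points AG-221, and bars are group means of the plotted values. In each panel V9 lies above V3 and V3-2 and below the AG-221 libraries.

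Hox genes, transcription factors that are high in stem cells and fall with differentiation, gave calls in 1 direction: 4 of 15 rose, 0 fell, and the median log2 fold change was 1.43, or 1.48 against V9 alone with genes at 0 in V9 set to their bound from 3 counts. Hoxa5 was at 48.02, 12.2, 25.9 and 37.9 CPM under AG-221 and 3.54, 5.43 and 11.1 CPM under vehicle (log2 fold change 2.21 ± 0.56, adjusted p = 0.0225), against 23.8 to 57.3 CPM in WT. Hoxb6 was at 12.6, 1.31, 1.68 and 3.52 and 0, 0.144 and 0.401 CPM. Hoxb9 was at 3.32, 0.231, 0.421 and 3.91 CPM under AG-221 and had no count in any vehicle library. The groups did not overlap for any of these 3, and AG1 was the highest treated library for Hoxa5 and Hoxb6. Without V3 or without V3-2, 1 of the 4 calls, Hoxb5, remained.

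Aldh1a1, a retinaldehyde dehydrogenase of retinoid metabolism and a stable gene, was at 7.45, 21.7, 23.8 and 8.99 CPM under AG-221, 0.506, 0.144 and 1.76 CPM under vehicle and 44.8 to 69.01 CPM in WT (log2 fold change 4.33 ± 0.78, adjusted p = 0.00465). The order of the groups was vehicle, AG-221 and WT, with no overlap, and the log2 fold change against V9 alone was 3.15 ± 1.03. Among 13 aldehyde dehydrogenase genes 2 rose and 4 fell. The largest fall was that of Aldh1b1, a mitochondrial member, at 19.2, 17.7, 20.96 and 17.5 CPM under AG-221 and 121, 88.8 and 51.3 CPM under vehicle (-2.20 ± 0.39, adjusted p = 0.00405).

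Of 26 erythroid genes tested, 9 rose and 1 fell (Tfrc, the transferrin receptor), with a median log2 fold change of 2.12 and of 1.49 against V9 alone. Hemgn, a nuclear protein of erythroid and stem cells, was at 53.4, 57.7, 45.3 and 43.8 CPM under AG-221, 2.698, 2.02 and 13.7 CPM under vehicle and 43.1 to 89.2 CPM in WT (log2 fold change 3.04 ± 0.57, adjusted p = 0.00626; 1.88 ± 0.62 against V9 alone). All 4 treated libraries lay within the WT range and far above V9.

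The other erythroid calls were of low level. Cldn13, a claudin of mouse erythroblasts, was at 1.01, 1.46, 3.03 and 4.49 CPM under AG-221, 0.169, 0.0962 and 0.321 CPM under vehicle and 15.2 to 20.7 CPM in WT (3.68 ± 0.66, adjusted p = 0.00458). Rhd, of the Rh blood group, was at 2.01, 4.004, 6.15 and 6.15 and 0.843, 0.433 and 0.802 CPM against 11.1 to 40.3 CPM in WT, and Ermap, an erythroblast membrane protein, at 0.201, 4.08, 6.06 and 5.67 and 0.169, 0.433 and 1.36 CPM against 24.7 to 64.02 CPM. For these 3 the treated libraries remained below every WT library, and AG1 was the lowest treated library, inside the vehicle range for Ermap. Gata1, the master regulator of red cell and platelet genes, was at 2.11, 9.16, 11.7 and 4.299 CPM under AG-221 and 6.07, 3.51 and 2.89 CPM under vehicle, with overlap (log2 fold change 0.72 ± 0.53, adjusted p = 0.364). Gata2, its partner in stem and progenitor cells, rose from 47.9, 85.3 and 48.7 CPM to 165, 118, 143 and 95.7 CPM (1.10 ± 0.32, adjusted p = 0.0383), with no overlap and V9 as low as V3. Of the 10 erythroid calls, 2 remained without V3 and 2 without V3-2.

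Of 19 megakaryocyte and platelet genes, 6 rose and 1 fell (median log2 fold change 0.58, and 0.90 against V9 alone). Pf4, platelet factor 4, was at 16.3, 56.1, 42.6 and 97.99 CPM under AG-221, 1.77, 0.721 and 8.98 CPM under vehicle and 131 to 172 CPM in WT (3.82 ± 0.88, adjusted p = 0.016). F2r, the thrombin receptor, was at 251, 165, 157 and 84.2 CPM, 2.28, 3.08 and 61.9 CPM and 47.2 to 59.5 CPM (2.88 ± 0.77, adjusted p = 0.0278), and V9 was far above V3 and V3-2. None of the 7 calls remained without V3, and none without V3-2.

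Lymphoid genes that rose were mostly near the limit of detection. Of 21 T and NK cell genes, 9 rose and 0 fell (median log2 fold change 2.15, and 0.95 against V9 alone). Cd3e, a chain of the T-cell receptor complex, was at 0.403, 1.08, 1.68 and 0.293 CPM under AG-221 and 0, 0 and 0.0802 CPM under vehicle, and Cd3d at 2.82, 0.308, 2.19 and 4.69 and 0.169, 0.144 and 0.321 CPM. AG8 was within the vehicle range for Cd3d. Lat, the adaptor of T-cell and platelet receptors, was the abundant exception, at 143, 285, 148 and 131 CPM under AG-221, 4.13, 3.94 and 88.9 CPM under vehicle and 120.1 to 145 CPM in WT (2.45 ± 0.72, adjusted p = 0.0382), with V9 far above V3 and V3-2. Of 18 B-cell genes 2 rose, among them Pou2af1, a B-cell transcriptional coactivator. None of the 9 T and NK cell calls remained without V3, and none without V3-2. In bulk RNA, fewer cells of a type and less RNA per cell cannot be told apart, here and in the groups that follow.

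C1qa, a complement subunit made by macrophages, had the largest log2 fold change among the genes that rose with at least 5 CPM on average: it was at 0.403, 5.62, 2.53 and 33.5 CPM under AG-221 and 0, 0.24 and 0.16 CPM under vehicle (6.08 ± 1.35, adjusted p = 0.0142). AG13 held most of the signal. AG13 was also the highest treated library for Cx3cr1, Adgre1, H2-Ab1 and Itgax, given further on, but not for Csf1r, Cd14 or Emb. The part of macrophages and dendritic cells in the difference was not tested.

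Of 18 monocyte and macrophage genes tested, 9 fell and 0 rose, with a median log2 fold change of -1.57 and of -1.11 against V9 alone. Csf1r, the receptor for macrophage colony-stimulating factor, was at 18.6, 15.5, 19.8 and 19.4 CPM under AG-221, at 491, 511 and 60.9 CPM in V3, V3-2 and V9, and at 13.1 to 34.2 CPM in WT. The 4 treated libraries were near one another and inside the WT range, V9 was higher, and V3 and V3-2 were far above V9. The log2 fold change was -4.27 ± 0.63 (adjusted p = 0.00267), a vehicle mean 19.3 times that of AG-221, and -1.72 ± 0.64 against V9 alone (unadjusted p = 0.0143, adjusted p = 0.928).

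Cx3cr1, the fractalkine receptor of monocytes, was at 7.65, 5.85, 7.75 and 14.7 CPM under AG-221 and 116, 78.2 and 32.95 CPM under vehicle (-3.08 ± 0.42, adjusted p = 0.00264). It had the smallest adjusted p of the list, and limma-voom called it against V9 alone (adjusted p = 0.041). Emb, embigin, a membrane glycoprotein of myeloid progenitors, was at 471, 511, 483 and 335 CPM and 2067, 1291 and 980.4 CPM (-1.68 ± 0.29, adjusted p = 0.004). In both genes all 3 vehicle libraries were well above all 4 treated libraries. Cd14, the co-receptor for lipopolysaccharide, was at 1.41, 0.693, 1.26 and 0.684 and 23.7, 13.7 and 2.16 CPM, and Adgre1, which encodes F4/80, at 9.56, 8.700, 9.93 and 16.5 and 116, 75.2 and 20.2 CPM. For these V9 was nearer to the treated libraries than to V3. Of the 9 calls, 3 remained without V3 and 5 without V3-2.

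Among 25 genes of primary granules and of granulocyte-monocyte progenitors, 9 fell and 0 rose (median log2 fold change -1.20). Against V9 alone the median was -0.06. Mpo, myeloperoxidase, was at 2877, 4434, 5885 and 1806 CPM under AG-221, 62762, 37307 and 11046 CPM under vehicle and 557 to 4907 CPM in WT (-3.30 ± 0.65, adjusted p = 0.00867; -1.54 ± 0.75 against V9 alone, unadjusted p = 0.0522). All 3 vehicle libraries were above the treated ones, and V9 was nearer to these than to V3 or V3-2. Ctsg, cathepsin G, was at 1010.0, 849, 1139 and 886 CPM and 2532, 4134 and 1265 CPM (-1.44 ± 0.43, adjusted p = 0.0415), and V9 was just above AG12. Elane, neutrophil elastase, did not pass, at 2247, 3088, 8544 and 2439.9 CPM under AG-221 and 29809, 8624 and 4542 CPM under vehicle (adjusted p = 0.0762), and V9 lay within the treated range. Igsf6, an immunoglobulin-family receptor of myeloid cells, passed against the 3 vehicle libraries (-2.17 ± 0.61, adjusted p = 0.0335) and had the opposite sign against V9 (0.18 ± 0.74), at 48.02, 129, 235 and 122 CPM under AG-221 and 1174, 505 and 119 CPM under vehicle.

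Genes of later neutrophil granules split the vehicle libraries. None of 22 passed (median log2 fold change -0.48), yet the median against V9 alone was 3.41, or 3.29 with genes at 0 in V9 at their bound. Ltf, lactotransferrin, was at 59.2, 382, 1239 and 329.8 CPM under AG-221 and 3141, 1841 and 50.1 CPM under vehicle. Camp, the cathelicidin precursor, was at 221, 595, 3582 and 2760.5 and 2849, 1787 and 106 CPM, and S100a8, a calcium-binding protein of neutrophils, at 706, 1538, 9432 and 7077 and 6858, 3229.9 and 385 CPM. V9 was the lowest of the 7 libraries for all 3, while AG12, V3 and V3-2 were among the 4 highest for each. It was also the lowest for Retnlg, Mmp9 and Orm1, all among the higher calls of DESeq2 against V9. Mmp9 was at 60.1 and 76.6 CPM in V3 and V3-2 and at 6.64 to 42.9 CPM under AG-221. The unadjusted p against V9 was 0.0103 for Ltf, 0.0208 for Camp and 0.0347 for S100a8, each at an adjusted p of 0.928.

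Antigen-presenting genes split the libraries another way. None of 14 MHC class II genes and none of 13 conventional dendritic cell genes passed, with medians of -0.56 and 0.00. H2-Ab1, an MHC class II beta chain, was at 169, 338, 427 and 3572 CPM under AG-221 and 1399, 764 and 5034 CPM under vehicle, and Itgax, which encodes CD11c, at 2.32, 5.08, 4.55 and 59.98 and 15.5, 26.97 and 61.98 CPM. AG13 and V9 were the high libraries in their groups for both genes. Batf3, Tlr3 and Cd86 followed the same pattern. These and Itgax were among the lower calls of limma-voom against V9. Without AG13, 53 accessions passed against V9 alone, 3 higher and 50 lower, among them H2-Ab1 (adjusted p = 0.00427) and Itgae, the CD103 integrin of dendritic and T cells (adjusted p = 0.000453).

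**Figure D3:**
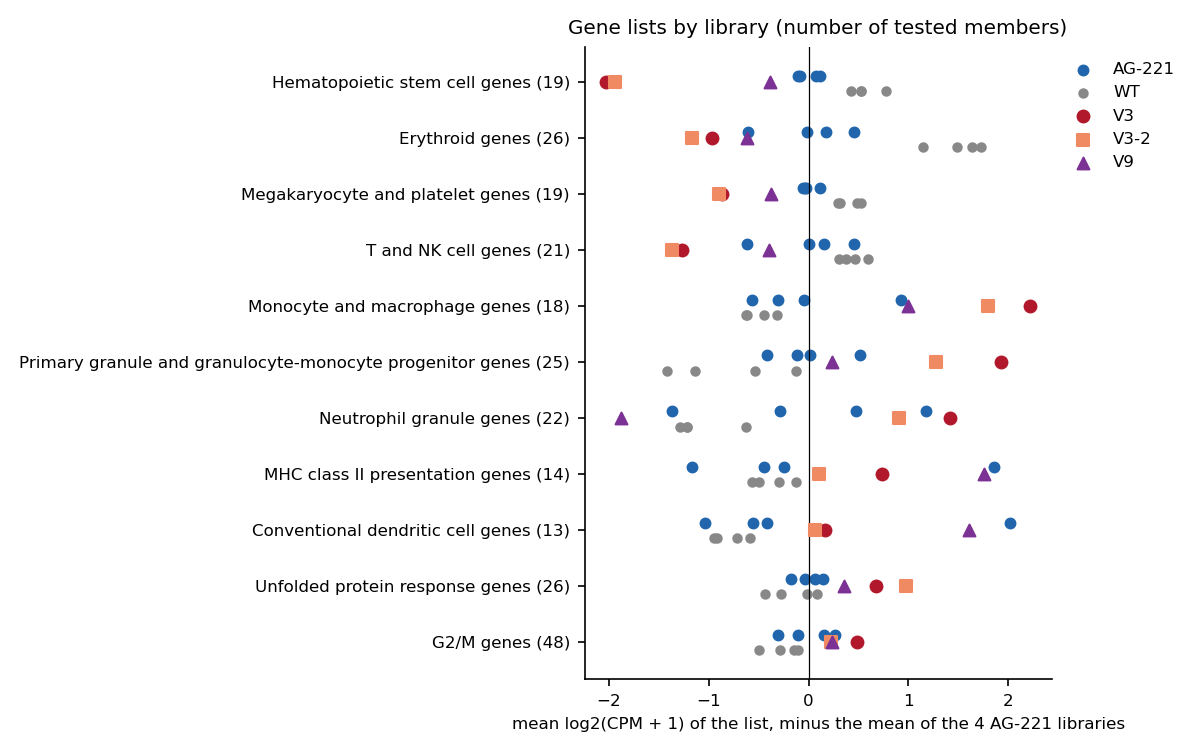
Mean log2(CPM + 1) over the tested members of 11 gene lists in each library, minus the mean of the 4 AG-221 libraries (line at 0); blue points are AG-221, grey points WT and the 3 other symbols the vehicle libraries. For stem cell genes V3 and V3-2 lie at -2.03 and -1.94 and V9 at -0.39, for monocyte genes at 2.22, 1.80 and 0.998, and for neutrophil granule genes V9 is lowest at -1.88.

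**Figure D4:**
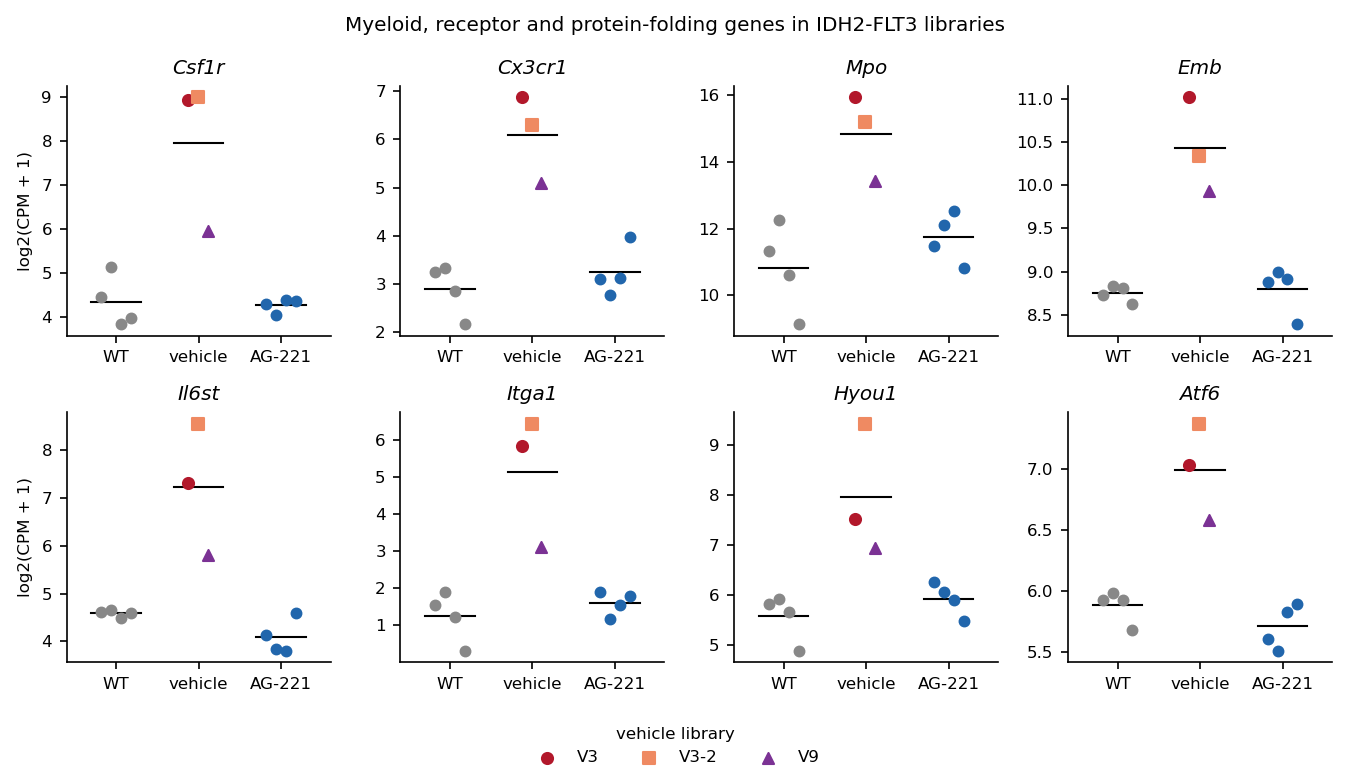
Expression of 8 genes that fell under AG-221, as log2(CPM + 1) by library; symbols as in the plot of genes that rose, with bars at group means of the plotted values. V9 is the lowest vehicle library and above every AG-221 library in all 8 panels.

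Cytokine receptors fell or did not pass: of 30, 7 fell and 0 rose (median log2 fold change -0.63, and 0.06 against V9 alone). Il6st, gp130, the shared signalling chain of the interleukin-6 family, was at 16.6, 13.4, 12.97 and 23.1 CPM under AG-221 and 158, 372 and 54.8 CPM under vehicle against 21.5 to 24.4 CPM in WT (-3.56 ± 0.57, adjusted p = 0.00277; -1.73 ± 0.61 against V9 alone, unadjusted p = 0.0105). The treated libraries lay within or below the WT range and all vehicle libraries above it. Il31ra, another receptor of that family and a stable gene, was at 3.02, 4.697, 4.71 and 10.9 and 56.9, 49.5 and 20.1 CPM (-2.85 ± 0.50, adjusted p = 0.004). Tnfrsf1a, a receptor for tumour necrosis factor, was at 129, 148, 154 and 104 and 513, 373 and 209 CPM (-1.45 ± 0.30, adjusted p = 0.0109). The groups did not overlap for Il31ra or Tnfrsf1a. The other calls were Csf1r, Il6ra, Ifngr1, Ifnar1 and Tnfrsf1b. Of the 7, 2 remained without V3 and 4 without V3-2.

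Downstream of FLT3, 3 of 21 STAT5 targets rose and 0 fell, with a median of 0.01. Socs3, which dampens cytokine signals, was at 16.8, 10.1, 10.4 and 13.2 CPM under AG-221 and 0.422, 1.68 and 5.21 CPM under vehicle (2.37 ± 0.64, adjusted p = 0.029). Pim2, a survival kinase, was at 136, 60.5, 86.3 and 135 and 5.65, 12.1 and 68.2 CPM against 23.4 to 34.6 CPM in WT (1.87 ± 0.58, adjusted p = 0.0471), and V9 lay inside the treated range. None of the 3 calls remained without V3 or without V3-2. Of 17 MAPK feedback genes 1 rose and 1 fell.

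Of 54 interferon-stimulated genes, 8 rose and 0 fell (median log2 fold change 0.21). Rsad2, the antiviral protein viperin, was at 18.9, 14.9, 23.6 and 29.9 CPM under AG-221 and 3.46, 2.404 and 8.26 CPM under vehicle (2.22 ± 0.45, adjusted p = 0.0101). Ddx58, the RNA sensor RIG-I, was at 58.8, 42.2, 63.7 and 42.99 and 24.5, 21.8 and 25.9 CPM (1.11 ± 0.26, adjusted p = 0.0186), and Ifit1 at 5.64, 6.62, 7.49 and 5.86 and 2.95, 0.721 and 1.68 CPM. The groups did not overlap in these 3 genes, and the vehicle libraries were close together for Ddx58. Against V9 alone the unadjusted p was 0.00311 for Ifit1, 0.0212 for Ddx58 and 0.0255 for Rsad2. Of the 8 calls, 1 remained without V3 and 0 without V3-2. Ifi209, an interferon-inducible gene of the p200 family outside the list, went the other way, at 14.4, 12.9, 17.7 and 55.7 CPM under AG-221 and 308, 202 and 81.1 CPM under vehicle (-2.97 ± 0.56, adjusted p = 0.00626).

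Genes of the unfolded protein response, which keeps folding capacity of the endoplasmic reticulum in step with load, fell or did not pass. Of 26, 8 fell and 0 rose (median log2 fold change -0.90, and -0.38 against V9 alone), while 5.29% of all accessions tested fell. Atf6, a stress sensor that becomes a transcription factor, was at 47.7, 44.5, 55.8 and 58.4 CPM under AG-221, 129.6, 165 and 94.7 CPM under vehicle and 50.4 to 62.3 CPM in WT (-1.33 ± 0.22, adjusted p = 0.00338). Its change was small but even, with no overlap, and the unadjusted p against V9 alone was 0.00968. Hyou1, a chaperone, was at 74.99, 65.6, 58.7 and 43.7 CPM and 181, 682 and 121 CPM (-2.43 ± 0.54, adjusted p = 0.0145), with V3-2 far above V3. P4hb, protein disulfide isomerase and a stable gene outside the list, was at 678, 675, 697 and 540.2 CPM and 3417, 2665 and 1326 CPM (-1.93 ± 0.35, adjusted p = 0.00458). Ern1, the sensor IRE1, was at 18.02, 17.2, 12.7 and 7.72 and 38.2, 233 and 13.9 CPM. It passed (adjusted p = 0.0402) through V3-2, and its adjusted p was 0.516 without it. Of the 8 calls, 3 remained without V3 and 1 without V3-2.

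In central metabolism, Gldc was the 1 gene of 25 serine, glycine and one-carbon genes that rose. Mthfd2, a mitochondrial folate enzyme that passes on one-carbon units from serine, fell, at 48.4, 79.2, 61.1 and 42.1 CPM under AG-221 and 167, 76.5 and 153 CPM under vehicle (-1.19 ± 0.35, adjusted p = 0.0379). V3 and V9 were high and V3-2 lay within the treated range. Of 31 genes of the citric acid cycle and glutamine use, 4 fell and 0 rose. Cs, citrate synthase, was at 190.2, 194, 204 and 179 CPM and 486, 396 and 345 CPM (-1.09 ± 0.27, adjusted p = 0.0214), without overlap and with V9 at -0.84 ± 0.39 on the log2 scale. Of 29 glycolysis and hypoxia genes 6 fell, among them Hk2, Gpi1 and Pgam1. None of the TCA calls and 1 of the glycolysis calls remained without V3, and none of either without V3-2.

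Most enzymes between 2-hydroxyglutarate and DNA methylation did not pass. Over all accessions tested, 4.39% rose and 5.29% fell. Of 17 tested genes of IDH, TET and DNA methylation enzymes and of related proteins, 1 rose and 2 fell (Idh1 and Gadd45b), with a median of -0.20, and none of these calls remained without V3 or without V3-2. Idh1, the cytosolic counterpart of Idh2, was at 0.201, 0.231, 0.168 and 0.293 CPM under AG-221 and 1.35, 7.36 and 0.401 CPM under vehicle, so that V3-2 was far above the other libraries. These were 2, 3, 2 and 3 counts under AG-221 and 16, 153 and 5 under vehicle, and WT was at 0 to 0.528 CPM. Outside V3-2 the counts are few, and no level of the whole gene is read from them. The log2 fold change of Idh1 went from -3.73 to -1.93 and its adjusted p from 0.0278 to 0.313 without V3-2. Tet3 was at 177, 107, 129.6 and 174 and 169, 216 and 179.9 CPM (adjusted p = 0.456), with overlap. Of 26 2-oxoglutarate-dependent demethylases and hydroxylases 3 fell and 0 rose. Plod3, a lysyl hydroxylase of collagen and a stable gene, was at 79.2, 44.96, 69.3 and 46.7 CPM under AG-221 and 385, 429 and 102 CPM under vehicle (-2.35 ± 0.40, adjusted p = 0.00371). Egln1, the oxygen-sensing prolyl hydroxylase of HIF, was at 62.5, 28.6, 53.1 and 37.7 and 65.5, 120.2 and 72.00 CPM (-0.92 ± 0.28, adjusted p = 0.0448), and V3 was close to AG1. Dnmt1, Dnmt3a and Uhrf1 are split over several accessions and are not analysed here.

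The largest log2 fold changes among genes that fell, with at least 5 CPM on average and no overlap, mixed genes high in V3 and V3-2 with genes high in V3-2 alone. Tmem178, a membrane protein of the endoplasmic reticulum, was at 0.604, 0.231, 0 and 1.07 CPM under AG-221 and 28.2, 87.98 and 6.17 CPM under vehicle (-6.43 ± 1.13, adjusted p = 0.004). Itga1, the alpha chain of a collagen-binding integrin, was at 2.72, 1.23, 1.94 and 2.44 and 55.99, 85.4 and 7.697 CPM (-4.58 ± 0.72, adjusted p = 0.00277), and Rnf43, a ubiquitin ligase that limits Wnt signals, at 0.201, 0, 1.26 and 0.391 and 11.6, 22.8 and 5.61 CPM (-4.82 ± 0.92, adjusted p = 0.00709). In these 3 stable genes V9 was lowest of the vehicle libraries and still above every treated library. Cd300lb, an activating receptor of myeloid cells, was at 8.25, 11.1, 8.503 and 6.06 and 227, 119.7 and 31.99 CPM (-3.89 ± 0.60, adjusted p = 0.00277).

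Tgfb1, a cytokine that restrains stem cell division, was at 11.1, 5.77, 13.8 and 6.25 CPM under AG-221 and 19.1, 499.6 and 16.4 CPM under vehicle. V3-2 was far above the other 6 libraries, and the adjusted p went from 0.027 to 0.584 without it. Spi1, the myeloid transcription factor PU.1, was at 38.2, 13.3, 21.97 and 26.6 and 35.8, 432 and 31.4 CPM, and its adjusted p went from 0.0292 to 0.704. Among the 626 genes that fell, 44 had V3-2 at over 4 times both V3 and V9, and none of the 44 passed without V3-2. In 42 of the 44 (95.5%), V5-2 was the highest of the 4 vehicle libraries of the mice without Tet2, against 29.7% of all accessions tested. Tgfb1 was at 365 CPM in V5-2 and at 7.91 to 18.6 CPM in the other vehicle libraries of those mice. V3-2 and V5-2 thus shared high genes, whatever their genotype, and both were the deepest libraries of their groups, at 20140641 and 20383132 counts. The part of this in the other calls was not tested.

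**Figure D5:**
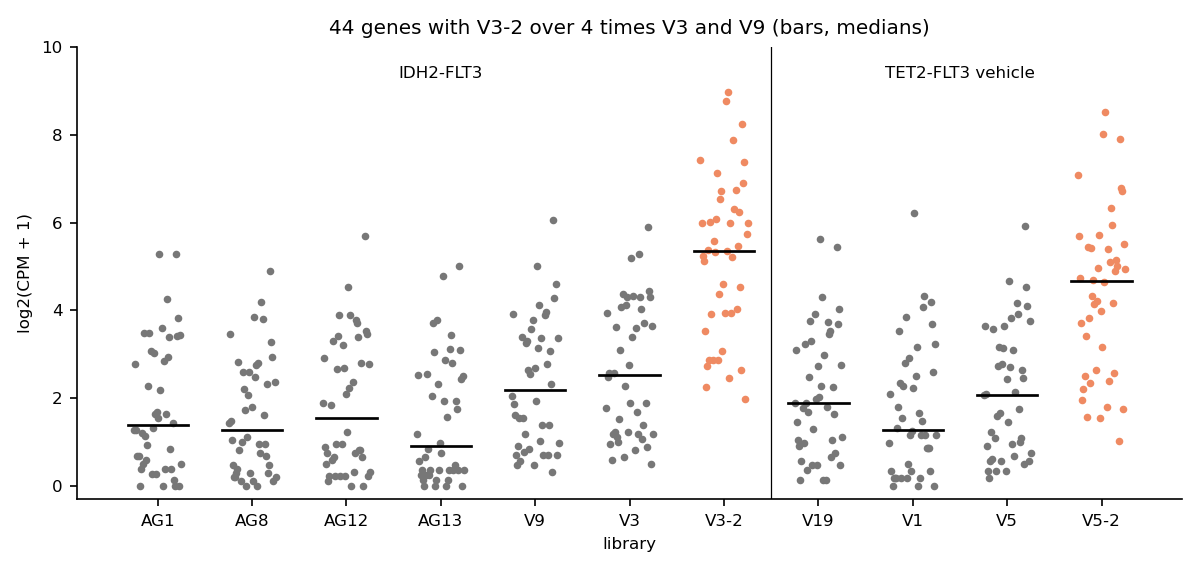
Levels, as log2(CPM + 1), of the 44 genes that fell under AG-221 and had V3-2 at over 4 times V3 and V9, in the 7 IDH2-FLT3 libraries and the 4 vehicle libraries of the mice without Tet2; each point is a gene and bars are medians. The medians are 5.36 in V3-2 and 4.66 in V5-2 and between 0.91 and 2.53 in the 9 other libraries.

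Few cell cycle genes passed. None of 39 S phase genes and 1 of 48 G2/M genes (Bub1b, -0.95 ± 0.30, adjusted p = 0.0471) passed, with medians of -0.29 and -0.31. In mean log2(CPM + 1) minus the AG-221 mean, S phase genes were at 0.304, 0.221 and 0.198 in V3, V3-2 and V9. The AG-221 libraries were lower, at -0.271 to 0.112. For G2/M genes the groups overlapped, at 0.487, 0.225 and 0.231 against -0.304 to 0.261. Of 70 cytosolic ribosomal protein genes 1 rose, and the median was 0.74, with 61 of the 70 above 0. Of 48 respiratory chain genes 2 fell while the median was 0.60. Most members of these 4 lists did not pass. Their medians and mean levels were not tested, and no direction is drawn from them.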

How the data were processed

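The authors' deposited table holds whole-number counts per RefSeq accession for 19 libraries, and a second table FPKM. Per the labels' protocols, polyA-primed libraries were made with the SMARTer Ultra Low Input kit. Per the submitters' processing notes, the tools were STAR 2.4.0f1 and featureCounts of Subread 1.4.5-p1 on genome build mm9; strand and multi-mapping settings are not given in the sources used here. The deposited FPKM followed from the deposited counts. Columns were assigned to groups by name.

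Of 33862 accessions, 33481 were named from RefSeq and 192 from GENCODE. Counts were fitted with edgeR 4.0.16 (R 4.3.3) on all 19 libraries with 5 group means, TMM factors and filterByExpr, leaving 14 residual degrees of freedom and a coefficient of variation between libraries of 42.9%. Library totals were 9635795 to 20383132 counts. P-values were adjusted by Benjamini-Hochberg over all accessions tested. Alternatives were DESeq2 1.42.0 and limma 3.58.1, on counts (voom with quality weights) and on log2(FPKM + pseudocount). Other filters and scalings and fits without each library were also run.

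For a gene with several accessions the most abundant was read. Genes named are fixed genes, the 12 largest changes each way with at least 5 CPM, up to 4 called members of each of 40 gene lists, and examples from the stable genes, some of these chosen after their values were seen. The members and lists were chosen with earlier results of these data known. SE is the log2 fold change over the root of the F statistic. Results for some genes are not reported here.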

Additional observations from a re-analysis of the deposited data

Results flagged for a closer look

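In 144 groups of 4 libraries, those of AG-221 and WT for each of 72 genes, 10 (6.94%) had 1 library far from the other 3 by Dixon's ratio at its 95% critical value; chance flags about 1 in 20. AG13 was that library for 6 genes. It was high for C1qa (33.5 CPM against 0.403 to 5.62 CPM), Adgre1 (16.5 CPM against 8.70 to 9.93 CPM), H2-Ab1 (3572 CPM against 169 to 427 CPM), Itgax (59.98 CPM against 2.32 to 5.08 CPM) and Ifi209 (55.7 CPM against 12.9 to 17.7 CPM), and low for P4hb (540.2 CPM against 675 to 697 CPM). AG12 was high for Elane (8544 CPM against 2247 to 3088 CPM) and AG8 for Lat (285 CPM against 131 to 148 CPM). Among WT libraries, wt4 was high for Lat (145 CPM against 120.1 to 122 CPM) and wt1 for Pim2 (34.6 CPM against 23.4 to 24.6 CPM). Groups of 3, which include the vehicle group, were not examined.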

How the results depend on the processing

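The 1145 calls became 2108 in DESeq2 (1038 higher, 1070 lower), 1832 in limma-voom (1077 lower), 72 with V3 and V3-2 summed (29 higher, 43 lower), 0 with the 7 libraries alone and 0 against V9 alone. Fits without 1 library gave 97 to 2252 calls, 33 to 1111 higher and 64 to 1141 lower. Without AG1, AG8, AG12 or AG13 they gave 600, 748, 572 and 658, without V3 97, without V3-2 110 and without V9 2252. Upper-quartile factors gave 385 lower, log2(FPKM + 1) 924 higher and 312 lower, and log2(FPKM + 0.1) 1091 higher and 299 lower. Against V9 alone, DESeq2 called 11, limma-voom 46, log2(FPKM + 1) 7, log2(FPKM + 0.1) 1 and the fits without 1 treated library 0 to 53, the 53 without AG13. The causes of these differences were not tested, beyond the fewer libraries of each such fit.

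Of 1352 values of 72 genes over the alternatives, 1003 kept direction and side of the threshold, 329 lost the call, 10 gained it and 10 changed sign. As log2 fold changes, those were Igsf6, Ltf and Ern1 against V9 alone (0.18, 3.34 and 0.0188) and 4 genes in fits without 1 library, whose range was -0.34 to 0.0107 for Tet2 (positive without V3), -2.95 to 0.0665 for H2-Ab1 (positive without V9), -0.41 to 0.95 for Camp (negative without AG12, AG13 or V9, at -0.41, -0.11 and -0.36) and -0.17 to 1.41 for S100a8 (negative without AG12 or V9, at -0.17 and -0.10). Under other scalings the medians of 37 of the 40 lists kept their sign; those of conventional dendritic cell, MHC class I and heme synthesis genes did not. No paired analysis was possible because the columns carry no replicate numbers of the labels. Accessions under about 1 CPM rest on few counts, and genes split over accessions are undercounted.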

Other observations

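Lists not described above are given here, to be read beside the shares at the end of the paragraph. Of 39 hematopoietic transcription factors 3 rose (Gata2, Ikzf2 and Tcf4) and 3 fell (Spi1, Klf4 and Nfe2). Of these 6 calls, 1 remained without V3 and 0 without V3-2. Nfe2, a factor of erythroid and platelet genes, was at 1.51, 1.15, 0.926 and 0.0977 CPM under AG-221 and 3.88, 19.6 and 4.81 CPM under vehicle, and its log2 fold change went from -3.34 to -2.23 and its adjusted p from 0.027 to 0.195 without V3-2. With its accessions summed, they were -1.18 and 0.227. Of 17 integrin genes 1 rose and 3 fell, of 20 immediate-early genes 1 and 3, of 20 lymphoid-primed progenitor genes 1 and 2, of 15 plasmacytoid dendritic cell genes 2 and 2, and of 21 eosinophil, basophil and mast cell genes 1 and 1. Of 21 NF-kB and chemokine genes 2 rose (Ccl3 and Ccl4) and 0 fell, and of 9 endothelial and stromal genes 2 rose (Bgn and Cxcl12). Phlda2 was the 1 of 12 imprinted genes that rose. Tigar was the 1 of 20 p53 targets that fell, and Alas1 the 1 of 15 heme synthesis genes. None of 17 MHC class I and 5 sex-linked genes passed, and of 10 tested gate genes 2 rose, Cd3e among them. The share of all accessions that passed was 4.39% higher and 5.29% lower.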
